A study of Mus musculus with 14 samples.

Results

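Transcripts that mark eosinophils, basophils and mast cells were followed in bone marrow adipose tissue of mice. The set held 10 genes, chosen by symbol from the 23441 genes of the deposited count matrix: Epx, Prg2, Prg3, Ear1, Ear2, Il5ra, Mcpt8, Cpa3, Fcer1a and Ms4a2. All 10 were found, and all 10 passed the filter on low counts. RNA came from marrow plugs flushed out of the distal tibiae of male C57BL6/SJL mice aged 24 weeks, and each sample pooled the plugs of a pair of mice. The mice were either BMAd-Pnpla2+/+ or BMAd-Pnpla2-/-, in which the lipase gene Pnpla2 is deleted in bone marrow adipocytes. The deletion is driven by Cre in the Adipoq locus, which becomes active after recombination by FLPo expressed from the Osterix locus. According to the paper, BMAd-Pnpla2+/+ controls carried the Cre and FLPo alleles as well and lacked the floxed Pnpla2 alleles. Each genotype was fed ad libitum (AL) or kept on caloric restriction (CR) of 30% for 6 weeks, which gave 4 samples of BMAd-Pnpla2+/+ AL, 4 of BMAd-Pnpla2+/+ CR, 3 of BMAd-Pnpla2-/- AL and 3 of BMAd-Pnpla2-/- CR.

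Eosinophils, basophils and mast cells are granule-bearing blood-lineage cells that act in allergy and in defence against parasites. Eosinophils mature under the cytokine IL-5 and pack a peroxidase, basic proteins and ribonucleases into their granules, whereas basophils and mast cells carry the high-affinity receptor for IgE and store histamine and proteases. The granule genes of eosinophils and basophils are transcribed most strongly while the cells are still maturing in the marrow, and transcription factors of the GATA family are needed for all of these lineages.

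The Ear1 and Ear2 genes are shown first, because they are neighbours that encode eosinophil-associated ribonucleases of nearly the same sequence. Both lie on chromosome 14 of the mm10 (GRCm38) build, Ear1 at chr14:43818765-43875517 on the minus strand with 3 exons and Ear2 at chr14:44102654-44103534 on the plus strand with 2 exons. Their GENCODE transcripts were 96.2% identical over 717 aligned positions. The 250 bases before each RefSeq transcription start (GRCm38.p6) were identical at 246 of 248 aligned positions, and the capitals below mark the 2 substitutions. For Ear1 the RefSeq start lies within the GENCODE interval given above, and so does the window before it. The windows are chr14:43819640-43819889 for Ear1, read on the minus strand, and chr14:44102404-44102653 for Ear2, read on the plus strand, both 5′ to 3′.
Ear1: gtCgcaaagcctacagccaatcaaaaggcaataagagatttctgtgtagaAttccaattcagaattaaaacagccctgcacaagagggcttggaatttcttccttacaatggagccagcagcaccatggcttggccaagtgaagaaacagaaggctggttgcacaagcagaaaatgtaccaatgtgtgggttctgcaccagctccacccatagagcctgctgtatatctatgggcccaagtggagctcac
Ear2: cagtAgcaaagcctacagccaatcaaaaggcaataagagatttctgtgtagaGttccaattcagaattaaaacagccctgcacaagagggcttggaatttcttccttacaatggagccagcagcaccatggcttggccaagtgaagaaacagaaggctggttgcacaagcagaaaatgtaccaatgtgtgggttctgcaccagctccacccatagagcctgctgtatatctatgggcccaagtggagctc
The similarity also limits the counts. STAR counts only reads with a single position, and 23.9% of the 100-base windows of the Ear1 transcript and 13.9% of those of Ear2 occurred in another gene as well, among them Ear10 and the pseudogene Ear-ps9. The counts of this pair are therefore uncertain. Of the other 8 members, 7 shared no such window and Ms4a2 shared 0.406% of its windows with Ms4a4b.

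The promoters of the other members are shown where they hold the letters GATAA on either strand, which contain the GATA core recognised by GATA factors. Of the 10 members, 9 were matched to a RefSeq promoter, all but Prg2. Within 250 bases before the start, GATAA was found for Prg3, Il5ra, Cpa3, Fcer1a and Ms4a2, which made 5 of 9, against 22.6% of 32817 mouse promoters. The letters GATAA were not in the windows of Epx, Ear1, Ear2 and Mcpt8. Sequences with GATA but without the last A were not counted. The Ear1 and Ear2 windows above hold TATC, which is GATA on the opposite strand. The stretches below run 5′ to 3′ along the gene's own strand, with the match in capitals, read as GATAA or as TTATC where it lies on the opposite strand.
Prg3, chr2:84988062-84988126, plus strand: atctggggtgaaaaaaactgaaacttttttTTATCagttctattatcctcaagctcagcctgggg
Il5ra, chr6:106749076-106749140, minus strand: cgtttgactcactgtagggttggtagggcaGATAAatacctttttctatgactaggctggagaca
Cpa3, chr3:20242192-20242256, minus strand: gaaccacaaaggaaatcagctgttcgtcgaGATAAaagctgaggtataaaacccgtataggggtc
Fcer1a, chr1:173227287-173227351, minus strand: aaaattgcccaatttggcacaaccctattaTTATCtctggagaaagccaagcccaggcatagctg
Ms4a2, chr19:11623722-11623786, minus strand: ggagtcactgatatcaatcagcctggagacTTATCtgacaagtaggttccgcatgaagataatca
Prg3 held a second match, which is in its stretch in lower case. Ms4a2 held 3 in all, and another of them is in its stretch in lower case. A second motif, TTGCNNAA, an arrangement bound by C/EBP factors, which also act in eosinophil precursors, was found for Ear1, Ear2 and Fcer1a on either strand, against 9.57% of all promoters. These matches describe letters in a window and were not tested as sites.

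Samples held between 18898324 and 21665553 gene reads counted without regard to strand. Members took between 0.0202% and 0.132% of them. Pnpla2, the gene deleted, was measured at 219 ± 58.4 CPM (gene reads scaled to library size; SD, n = 4) in BMAd-Pnpla2+/+ AL, 840 ± 241 (n = 4) in BMAd-Pnpla2+/+ CR, 148 ± 21.7 (n = 3) in BMAd-Pnpla2-/- AL samples and 224 ± 45.5 (n = 3) in the BMAd-Pnpla2-/- CR group, and the genotypes did not overlap under either diet. The 3 BMAd-Pnpla2-/- CR libraries stood apart in one respect: 50.1% to 50.5% of their strand-assigned reads lay on the first strand, against 4.30% to 4.62% in the other 11. Library type and this group cannot be told apart, and for this reason unstranded counts were used in all 14 samples. In the other 11 samples the unstranded count of a member exceeded its reverse-strand count by at most 1.29%.

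The tissue was checked against markers of the 3 cell types. Members were among the markers of each type. Of the 5 basophil and 8 eosinophil markers, all were detected in all 14 samples. Of the 7 mast cell markers, only Cpa3 and the stem cell factor receptor Kit were well detected. Tpsab1 and Mrgprb2 were listed at 0 counts in all 14 samples, Tpsb2 did not exceed 5 counts, Mcpt4 did not exceed 3 and Cma1 did not exceed 9 in any sample. A count of 0 allows up to 3 counts, and tryptase genes resemble each other, so that reads may have been lost from Tpsab1 and Tpsb2. Kit is carried by many progenitors and Cpa3, Fcer1a and Ms4a2 are also expressed by basophils and their precursors, so a mast cell source of the members was not shown by these markers.

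Levels were compared between genes only after division by exon length. In BMAd-Pnpla2+/+ AL samples, Prg2 (chr2:84980461-84983632), which encodes the major basic protein of the eosinophil granule, stood highest at 354 ± 56.9 CPM per kb (SD, n = 4). Ear2 followed at 89.9 ± 12.8 CPM per kb, and its lowest sample lay above the highest of Ear1, at 50.7 ± 10.9. Mcpt8 at 50.01 ± 14.3 and Epx at 47.4 ± 15.9 CPM per kb did not differ from Ear1 beyond their spread. Prg3 (11.1 ± 1.78) and Cpa3 (9.26 ± 2.33) overlapped each other on this scale, as did Fcer1a (4.71 ± 1.41) and Ms4a2 (3.13 ± 0.907). Il5ra was lowest at 0.844 ± 0.270 CPM per kb.

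The first question was how CR changed these genes in each genotype. In BMAd-Pnpla2+/+ mice, Epx, Prg2 and Prg3, which encode granule proteins of eosinophils, fell with CR, by 1.45, 1.05 and 1.75 on the log2 scale. With BMAd-Pnpla2-/- mice the same 3 genes and Ear1 fell. A gene was called when its p, adjusted by Benjamini-Hochberg over all 17494 genes tested with edgeR's quasi-likelihood test, was under 0.05 and its log2 fold change was above 1 or below -1. Of the 10 members, 3 were lower and 0 higher in BMAd-Pnpla2+/+ mice, where 1.93% of all genes were called lower and 7.26% higher. Among the same 10 genes, 4 were lower and 0 higher in BMAd-Pnpla2-/- mice, where 0.926% of all genes were called lower and 2.59% higher. The median log2 fold change of the 10 was -0.85 in BMAd-Pnpla2+/+ mice, beside 0.003 over all genes tested, and -1.13 in BMAd-Pnpla2-/- mice, beside 0.05. In bulk RNA, fewer cells of a type and less RNA per cell cannot be told apart. Each sample is a pool of its own, and p-values measure the spread between such pools.

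**Figure D1:**
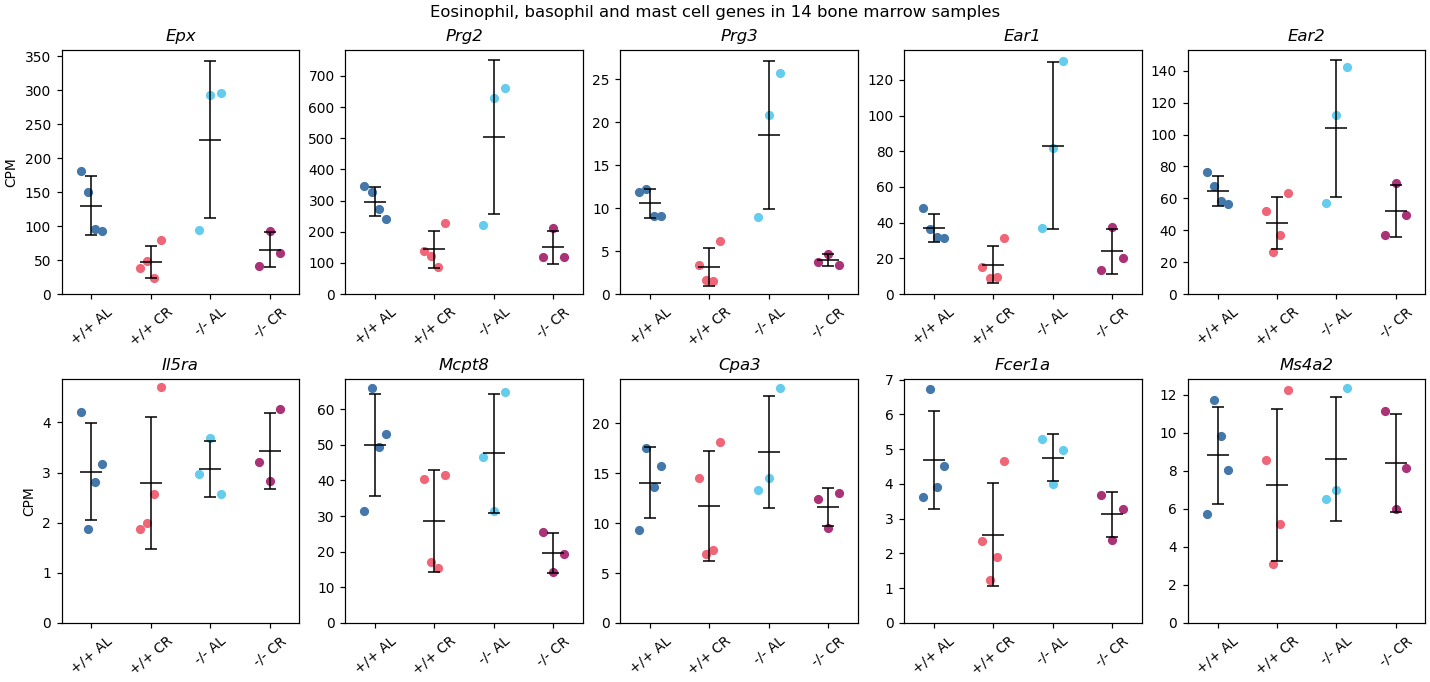
CPM (gene reads scaled to library size, linear axis from 0) of the 10 genes in each of the 14 samples, with the group mean (long bar) and SD (whiskers). The 5 eosinophil granule and ribonuclease genes in the upper row have lower means with CR in both genotypes, and 2 of the 3 BMAd-Pnpla2-/- AL samples sit far above the third. The diets overlap in both genotypes for Ear1 and Ear2, as they do for Il5ra and Ms4a2.

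Epx (chr11:87864000-87875536, minus strand, 14 exons) encodes eosinophil peroxidase. Its CPM in the 4 BMAd-Pnpla2+/+ AL samples was 181, 150, 95.3 and 92.2, and with CR it was 37.7, 48.4, 24.3 and 79.7. Mice lacking Pnpla2 in their marrow adipocytes had 93.7, 293 and 296 with AL and 41.7, 92.8 and 60.6 with CR. Every CR sample lay below every AL sample of its genotype, though in BMAd-Pnpla2-/- mice the highest CR and the lowest AL sample nearly met. The log2 fold change was -1.45 ± 0.421 (SE; adjusted p = 0.0256, edgeR) for BMAd-Pnpla2+/+ mice and -1.81 ± 0.489 (adjusted p = 0.0340) for BMAd-Pnpla2-/- mice.

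Prg2 had CPM of 345, 327, 274 and 242 in BMAd-Pnpla2+/+ AL and of 138, 122, 87.5 and 228 in BMAd-Pnpla2+/+ CR samples. The BMAd-Pnpla2-/- samples had 221, 630 and 662 with AL and 119, 212 and 120 with CR. The diets did not overlap in either genotype, and the smallest gap was again between the highest CR and the lowest AL sample. Log2 fold changes were -1.05 ± 0.347 (adjusted p = 0.0417, edgeR) for BMAd-Pnpla2+/+ mice and -1.75 ± 0.408 (adjusted p = 0.0200) for BMAd-Pnpla2-/- mice.

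Prg3 (chr2:84988215-84993886, plus strand, 6 exons) encodes a second major basic protein and lies just downstream of Prg2, and the transcripts of this pair were 61.8% identical. Its CPM was 11.8, 12.2, 9.08 and 9.13 in BMAd-Pnpla2+/+ AL and 3.36, 1.62, 1.49 and 6.205 in BMAd-Pnpla2+/+ CR samples. For the BMAd-Pnpla2-/- genotype it was 8.98, 20.8 and 25.7 with AL and 3.74, 4.69 and 3.38 with CR. The diets did not overlap in either genotype. The fall had the largest size of the 10 members in both, at -1.75 ± 0.415 (adjusted p = 0.0116, edgeR) for BMAd-Pnpla2+/+ mice and -2.23 ± 0.478 (adjusted p = 0.0148) for BMAd-Pnpla2-/- mice.

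Ear1 had CPM of 48.4, 36.7, 31.8 and 31.2 in BMAd-Pnpla2+/+ AL and of 15.04, 9.21, 9.83 and 31.7 in BMAd-Pnpla2+/+ CR samples, where replicate 4 reached into the AL range. The BMAd-Pnpla2-/- values were 37.2, 81.6 and 131 with AL and 13.6, 37.7 and 20.4 with CR, and here too 1 CR sample passed the lowest AL sample. The log2 fold change of -1.18 ± 0.449 in BMAd-Pnpla2+/+ mice did not pass the test (adjusted p = 0.0679, edgeR), while that of -1.80 ± 0.520 in BMAd-Pnpla2-/- mice did (adjusted p = 0.0422). Without BMAd-Pnpla2+/+ CR replicate 4 the former was -1.71 (adjusted p = 0.00976), and it also passed without BMAd-Pnpla2-/- AL replicate 1 (adjusted p = 0.0387) and with DESeq2 (adjusted p = 0.0255).

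Ear2 moved by less. Its CPM was 76.3, 67.5, 58.5 and 56.2 in BMAd-Pnpla2+/+ AL samples, and 51.8, 26.2, 36.9 and 63.1 in BMAd-Pnpla2+/+ CR samples. The BMAd-Pnpla2-/- samples had 57.2, 112 and 142 with AL and 36.8, 69.4 and 49.8 with CR. The diets overlapped in both genotypes, and neither log2 fold change passed the test (-0.54 ± 0.300, adjusted p = 0.193, and -0.999 ± 0.347, adjusted p = 0.0768, edgeR). The second passed without BMAd-Pnpla2-/- AL replicate 1 (-1.34, adjusted p = 0.0457) and with DESeq2 (-1.04, adjusted p = 0.0211). The log2 ratio of Ear1 to Ear2 counts, taken within samples after these values had been seen and given as a description with no test, was -0.82 ± 0.107 (SD, n = 4) in BMAd-Pnpla2+/+ AL samples and -1.55 ± 0.406 (n = 4) under BMAd-Pnpla2+/+ CR. For the BMAd-Pnpla2-/- samples it was -0.40 ± 0.255 (n = 3) with AL and -1.20 ± 0.288 (n = 3) with CR.

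Il5ra (chr6:106710357-106749037, minus strand, 13 exons) encodes the IL-5 receptor subunit that defines eosinophil precursors. Its CPM ranged from 1.87 to 4.21 in BMAd-Pnpla2+/+ AL, from 1.87 to 4.71 in BMAd-Pnpla2+/+ CR, from 2.57 to 3.68 in BMAd-Pnpla2-/- AL and from 2.82 to 4.28 in BMAd-Pnpla2-/- CR samples, which came from only 35 to 88 counts per sample. All groups overlapped. The log2 fold change with CR was -0.12 ± 0.311 (adjusted p = 0.788, edgeR) for BMAd-Pnpla2+/+ mice and 0.16 ± 0.357 (adjusted p = 0.812) for BMAd-Pnpla2-/- mice, so that 2 standard errors span -0.74 to 0.50 and -0.56 to 0.87.

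Among the genes of basophils and mast cells, none was called in either genotype by the main edgeR fit. Mcpt8 and Fcer1a were called under some of the other settings given below. An unadjusted p under 0.05 was found for 2 of 4 in BMAd-Pnpla2+/+ mice, beside 40.3% of all genes, and for 1 of 4 in BMAd-Pnpla2-/- mice, beside 29.1%. With DESeq2, 0 of 4 were called in BMAd-Pnpla2+/+ mice and only Mcpt8 in BMAd-Pnpla2-/- mice. Mcpt8 (chr14:56082166-56085273, minus strand, 5 exons) encodes a protease found in mouse basophils. Its CPM was 31.3, 65.9, 49.3 and 53.1 in BMAd-Pnpla2+/+ AL and 40.5, 17.0, 15.4 and 41.5 in BMAd-Pnpla2+/+ CR samples, which overlapped. The other genotype had 46.7, 31.4 and 64.7 with AL and 25.5, 14.2 and 19.5 with CR, which did not overlap. The log2 fold changes were -0.80 ± 0.353 (adjusted p = 0.106, edgeR) and -1.27 ± 0.413 (adjusted p = 0.0623). The second passed with DESeq2 (adjusted p = 0.0121) and with the deposited matrix (adjusted p = 0.0432), and without BMAd-Pnpla2+/+ CR replicate 2 (0.0443), BMAd-Pnpla2+/+ CR replicate 3 (0.0419) or BMAd-Pnpla2-/- AL replicate 2 (0.0432).

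Fcer1a and Ms4a2 encode the alpha and beta chains of the high-affinity IgE receptor. Fcer1a (chr1:173221284-173227214, minus strand, 5 exons) had CPM of 3.62, 6.74, 3.91 and 4.52 in BMAd-Pnpla2+/+ AL samples, and 2.35, 1.25, 1.89 and 4.65 in BMAd-Pnpla2+/+ CR samples. The other genotype had 5.29, 4.002 and 4.98 with AL and 3.68, 2.40 and 3.28 with CR. Replicate 4 of BMAd-Pnpla2+/+ CR was the sample that overlapped AL. The log2 fold change was -0.89 ± 0.335 (adjusted p = 0.0625, edgeR) in BMAd-Pnpla2+/+ mice, -1.35 (adjusted p = 0.00369) without that sample, and -0.61 ± 0.384 (adjusted p = 0.318) in BMAd-Pnpla2-/- mice. Ms4a2 (chr19:11615523-11623719, minus strand, 8 exons) ranged from 5.73 to 11.7 CPM in BMAd-Pnpla2+/+ AL, from 3.10 to 12.2 in BMAd-Pnpla2+/+ CR, from 6.50 to 12.4 in BMAd-Pnpla2-/- AL samples and from 6.02 to 11.2 in the BMAd-Pnpla2-/- CR group. Its log2 fold changes were -0.28 ± 0.377 and -0.03 ± 0.435 (adjusted p = 0.600 and 0.971), and all groups overlapped.

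Cpa3 (chr3:20215620-20242181, minus strand, 12 exons), which encodes the carboxypeptidase of mast cell granules and is also expressed in basophil and mast cell precursors, had CPM of 9.30, 17.5, 13.6 and 15.8 in BMAd-Pnpla2+/+ AL and 14.6, 6.94, 7.31 and 18.1 in BMAd-Pnpla2+/+ CR samples. The BMAd-Pnpla2-/- samples had 13.3, 14.6 and 23.6 with AL and 12.4, 9.49 and 13.02 with CR. The latter did not overlap, by a narrow margin. Neither log2 fold change passed the test (-0.26 ± 0.311, adjusted p = 0.548, and -0.56 ± 0.359, adjusted p = 0.328, edgeR). In all, CR lay below AL without overlap for 3 of 10 members in BMAd-Pnpla2+/+ mice, where 10.4% of all genes did so, and for 6 of 10 in BMAd-Pnpla2-/- mice, where 17.4% did.

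**Figure D2:**
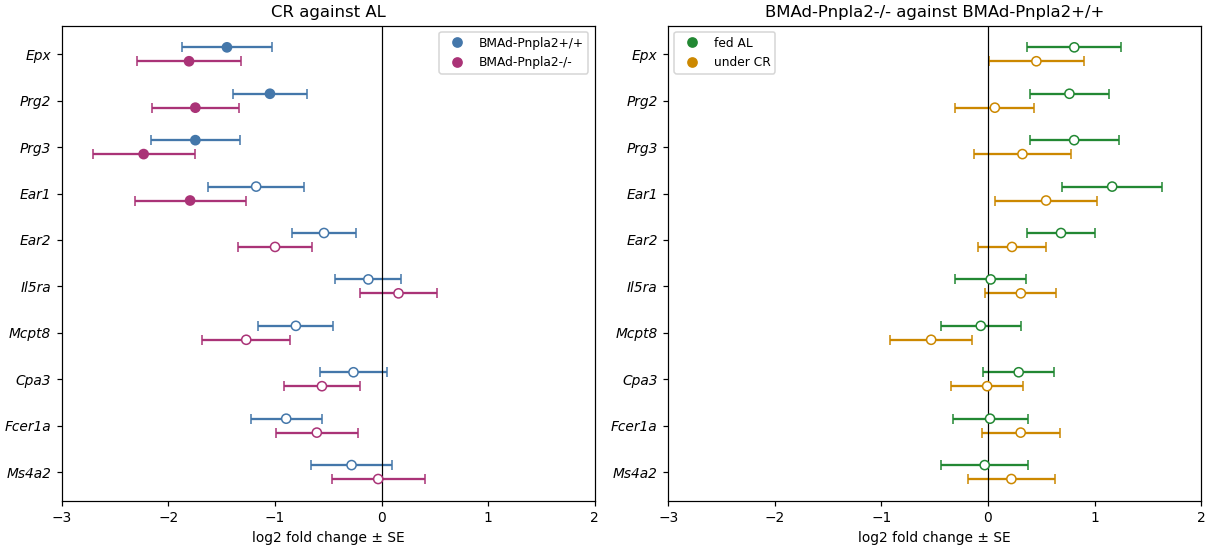
Log2 fold change (horizontal axis, ± SE) of each of the 10 genes for CR against AL in each genotype (left) and for BMAd-Pnpla2-/- against BMAd-Pnpla2+/+ under each diet (right), from edgeR. Filled points are called genes (adjusted p under 0.05, log2 fold change above 1 or below -1): 3 genes for BMAd-Pnpla2+/+ mice and 4 for BMAd-Pnpla2-/- mice on the left, 0 on the right.

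Averaged over both genotypes, 5 of the 10 members were lower with CR, beside 1.37% of all genes called lower and 5.93% called higher. These were Prg3 at -1.99 ± 0.317 (adjusted p = 0.000785, edgeR), Epx at -1.63 ± 0.323 (adjusted p = 0.00257), Ear1 at -1.49 ± 0.343 (adjusted p = 0.00582), Prg2 at -1.40 ± 0.268 (adjusted p = 0.00213) and Mcpt8 at -1.04 ± 0.272 (adjusted p = 0.0110). At an adjusted p under 0.05 without the fold criterion, 7 of the 10 passed, all of them lower, with Ear2 at -0.77 ± 0.229 (adjusted p = 0.0206) and Fcer1a at -0.75 ± 0.255 (adjusted p = 0.0351) added, beside 34.5% of all genes passing in either direction. Cpa3 (-0.41 ± 0.237), Ms4a2 (-0.16 ± 0.288) and Il5ra (0.02 ± 0.237) did not pass.

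How firmly the calls within a genotype stand depended on single libraries and on some settings. In BMAd-Pnpla2+/+ mice Prg3 was called under all 24 alternatives run, those that left out 1 sample included (adjusted p at most 0.0354). Epx lost its call without AL replicate 1 (adjusted p = 0.0571), AL replicate 2 (0.0568), CR replicate 2 (0.0525) or CR replicate 3 (0.0733). Prg2 lost it without any 1 of the BMAd-Pnpla2+/+ samples other than CR replicate 4, with adjusted p between 0.0530 and 0.116. Without CR replicate 4, 6 members were called, namely Epx, Prg2, Prg3, Ear1, Mcpt8 and Fcer1a. Calls over all genes rose as well, from 1608 of 17494 to 2238 of 17441. For BMAd-Pnpla2-/- mice no member was called without AL replicate 3 or without CR replicate 3, when the adjusted p of Prg3 was 0.0534 and 0.0656, and Prg3 was called alone without CR replicate 1. Over all genes, calls in that genotype fell from 615 of 17494 to 192 of 18017, 124 of 17951 and 586 of 18001, in the same order. Epx also lost its call there without AL replicate 2 (adjusted p = 0.0662) or CR replicate 2 (0.0516), and Ear1 without AL replicate 2 (0.0582), BMAd-Pnpla2+/+ AL replicate 3 (0.0519) or BMAd-Pnpla2+/+ AL replicate 4 (0.0541). Without the filter on low counts, Prg2 lost its call in BMAd-Pnpla2+/+ mice (adjusted p = 0.0649) and Ear1 and Epx lost theirs in BMAd-Pnpla2-/- mice (adjusted p = 0.0630 for Ear1, and just over the threshold for Epx). With the replicate number as a block, Ear1 lost its call in BMAd-Pnpla2-/- mice (adjusted p = 0.0534). With DESeq2, 4 members were called in BMAd-Pnpla2+/+ mice (Ear1 added) and 6 in BMAd-Pnpla2-/- mice (Ear2 and Mcpt8 added), and 5 were called in BMAd-Pnpla2-/- mice (Mcpt8 added) with the deposited matrix and when only the groups compared were fitted. Calls over all genes also changed under these settings and are given in the closing section.

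The numbers in the sample labels fall into series, and what they mark is not given in the sources used here. Numbers starting with 38 belong to BMAd-Pnpla2+/+ AL replicates 3 and 4, BMAd-Pnpla2+/+ CR replicate 4, BMAd-Pnpla2-/- AL replicates 2 and 3 and BMAd-Pnpla2-/- CR replicate 3, so the samples that stood highest in BMAd-Pnpla2+/+ CR and BMAd-Pnpla2-/- AL for Epx and Prg2 are of that series. In BMAd-Pnpla2+/+ AL, the samples of that series were the lowest for both genes. Within that series Epx was at 95.3 and 92.2 CPM with AL against 79.7 with CR in BMAd-Pnpla2+/+ mice, and at 293 and 296 against 60.6 in BMAd-Pnpla2-/- mice. Within the other numbers it was at 181 and 150 against 37.7, 48.4 and 24.3, and at 93.7 against 41.7 and 92.8. With the series as a term, chosen after seeing the data, the same 3 members were called in BMAd-Pnpla2+/+ mice, while Epx (-1.63, adjusted p = 0.0715) and Ear1 (-1.51, adjusted p = 0.0930) lost their calls in BMAd-Pnpla2-/- mice and Mcpt8 lost its call in the average.

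Averaged over the genotypes, Epx, Prg2, Prg3 and Ear1 were called without any 1 of the 14 samples, and Mcpt8 in 9 of those 14 fits. Its log2 fold change was -0.93 to -0.96 in the other 5, without BMAd-Pnpla2+/+ AL replicate 2, BMAd-Pnpla2+/+ CR replicate 2 or 3, BMAd-Pnpla2-/- AL replicate 3 or BMAd-Pnpla2-/- CR replicate 2, just short of the fold criterion.

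Genotype was the second question. Among AL mice, edgeR called none of the 10 members and 0 genes (0.0%) of all tested. DESeq2 called none of the 10 members and 12 of 23271 genes. In edgeR's test, 1 member had an unadjusted p under 0.05, beside 694 of all genes tested. That member was Ear1, at a log2 fold change of 1.17 ± 0.468 (unadjusted p = 0.0268). The other 4 eosinophil granule and ribonuclease genes were at 0.81 ± 0.440 (Epx), 0.76 ± 0.368 (Prg2), 0.81 ± 0.416 (Prg3) and 0.69 ± 0.319 (Ear2). The samples of this group were uneven: BMAd-Pnpla2-/- AL replicates 2 and 3 had 293 and 296 CPM of Epx and 630 and 662 of Prg2, above every BMAd-Pnpla2+/+ AL sample, while replicate 1, at 93.7 and 221, lay within or below the range of the controls. The summed CPM of the 8 eosinophil markers was 447, 1196 and 1303 in replicates 1, 2 and 3, against 470 to 703 in BMAd-Pnpla2+/+ AL. These markers were Epx, Prg2, Prg3, Ear1, Ear2 and Il5ra, which are members, with Ccr3 and Siglecf. Their sum therefore largely repeats the values of the members. For the 4 basophil and mast cell members the log2 differences ran from -0.07 to 0.29.

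Under CR, none of the 10 members was called between the genotypes by edgeR or DESeq2, and 0 had an unadjusted p under 0.05 in edgeR. Of all genes, edgeR called 0.0114% and DESeq2 called 119 of 14252. The log2 differences ran from -0.53 ± 0.387 for Mcpt8 to 0.55 ± 0.479 for Ear1. For Prg2 the difference was 0.06 ± 0.371, with 2 standard errors on either side spanning -0.68 to 0.81. No member kept the genotypes from overlapping under either diet, beside 5.45% of all genes with AL and 16.8% with CR.

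The responses to CR were not shown to differ between the genotypes. The test of the difference called 0 of 10 members in edgeR and 0 in DESeq2, with 0 at an unadjusted p under 0.05 in edgeR. Of all genes, edgeR called 0.0% and DESeq2 called 11 of 16054. The largest difference was that of Prg2, at -0.70 ± 0.525 (adjusted p = 0.636), with an interval of 2 standard errors from -1.75 to 0.35. All 5 eosinophil granule and ribonuclease genes had a negative difference, between -0.70 and -0.36, and they share samples and cells. The intervals are wide enough to hold a response 1 log2 unit larger in BMAd-Pnpla2-/- mice for each of these 5.

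Within groups, the members varied in 2 blocks. After the group mean was taken from each log2 CPM value, Pearson's r between the 5 eosinophil granule and ribonuclease genes ran from 0.77 to 0.95 over the 14 samples (median 0.89, 10 pairs), and between Mcpt8, Cpa3, Fcer1a and Ms4a2 from 0.79 to 0.92 (median 0.87, 6 pairs). Between the blocks it ran from 0.04 to 0.71 (median 0.33, 20 pairs). Il5ra stood outside both, with r between 0.20 and 0.33 to the first and between -0.10 and 0.28 to the second, on low counts. These are descriptions, since the values share libraries and their scaling. Cpa3, named for mast cells, moved with the basophil gene Mcpt8 (r = 0.92 within groups).

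**Figure D3:**
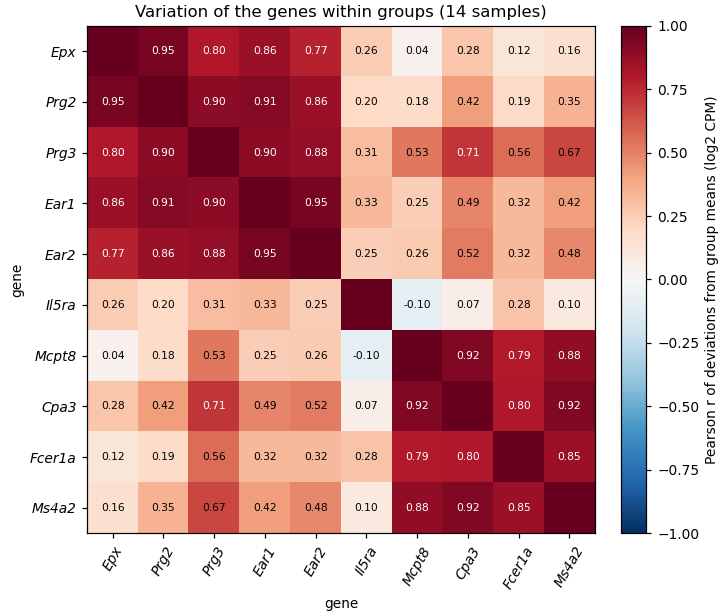
Pearson's r between the 10 genes over the 14 samples, computed on deviations of log2 CPM from the group means (colour scale from -1 to 1, value printed in each cell). The first 5 genes form one block with r from 0.77 to 0.95 and the last 4 another with r from 0.79 to 0.92, and Il5ra belongs to neither.

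The genes whose pattern was closest over all 14 samples were sought among the 12917 tested genes whose mean count was 50 or more. For Epx they were Prg2 (r = 0.97), Ear6 (0.96), Ear1 (0.95), Prg3 (0.94) and Acot13 (0.94), of which 3 are members and Ear6 is a further ribonuclease of the same family. For Mcpt8 they were Prss34 (0.97), Npas4 (0.94), Rab44 (0.93), Tnnt1 (0.93) and Ccdc125 (0.93), where Prss34 encodes a basophil protease. For Cpa3, 4 are given: 5830432E09Rik (0.90), Tnnt1 (0.87), Ms4a2 (0.87) and 5830448L01Rik (0.86). Within groups, the r of these was 0.95, 0.87, 0.86, 0.80 and 0.88 to Epx, 0.96, 0.87, 0.92, 0.95 and 0.85 to Mcpt8 and 0.89, 0.88, 0.92 and 0.82 to Cpa3, in the same order.

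Other genes of these lineages were taken from 3 lists. Of 18 other eosinophil genes, 16 could be tested. With CR, 1 was lower and 1 higher in BMAd-Pnpla2+/+ mice and 2 were lower and 0 higher in BMAd-Pnpla2-/- mice, with a median log2 fold change of -0.09 and -0.19. Of all genes, 1.93% were called lower and 7.26% higher in BMAd-Pnpla2+/+ mice, and 0.926% lower and 2.59% higher in BMAd-Pnpla2-/- mice. Ear6 fell in both, by 1.95 (adjusted p = 0.0113, edgeR) and by 2.29 (adjusted p = 0.0196), from 20.5 to 39.7 CPM in BMAd-Pnpla2+/+ AL to 2.84 to 14.9 with CR. As with Ear1 and Ear2, its counts are uncertain where copies of this family share sequence. Alox15, a lipoxygenase of eosinophils and macrophages, fell by 1.73 in BMAd-Pnpla2-/- mice (adjusted p = 0.0170) and had -0.96 in BMAd-Pnpla2+/+ mice (adjusted p = 0.0480), short of the fold criterion. Ltc4s, the synthase of the leukotriene LTC4, rose by 1.33 in BMAd-Pnpla2+/+ mice (adjusted p = 0.0180) and had 1.23 in BMAd-Pnpla2-/- mice (adjusted p = 0.0764).

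At an adjusted p under 0.05 alone, 4 of the 16 were lower and 2 higher in BMAd-Pnpla2+/+ mice, where 26.0% of all genes passed, and 4 were lower and 1 higher in BMAd-Pnpla2-/- mice, where 11.6% passed. Those not yet named, picked out after their values had been seen, were Siglecf, Cebpe and Id2. Siglecf, a surface lectin of eosinophils, was at -0.65 and -0.80 (adjusted p = 0.0155 and 0.0220, edgeR), and Cebpe, a factor needed for granule genes in eosinophils and neutrophils, was at -0.81 and -0.99 (adjusted p = 0.00889 and 0.0146). Id2, an inhibitor of helix-loop-helix factors, went the other way, at 0.35 and 0.57 (adjusted p = 0.0419 and 0.0198). The eotaxin receptor gene Ccr3, also chosen after its values were seen and carried by mature eosinophils, was at -0.02 ± 0.287 (adjusted p = 0.961) and 0.62 ± 0.329 (adjusted p = 0.233), with CPM of 16.5 to 22.7, 16.3 to 23.4, 13.4 to 38.4 and 24.6 to 53.8 in the BMAd-Pnpla2+/+ AL, BMAd-Pnpla2+/+ CR, BMAd-Pnpla2-/- AL and BMAd-Pnpla2-/- CR groups. Like Il5ra, it did not pass the test in either genotype.

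Of 22 other basophil and mast cell genes, 12 could be tested, at a median log2 fold change with CR of -0.13 and -0.12. In each genotype 1 was called lower and 0 higher, beside 1.93% and 0.926% of all genes called lower. That 1 gene was Hdc, which encodes the enzyme that makes histamine and is also expressed in myeloid progenitors and neutrophils. It had 124 to 155 CPM in BMAd-Pnpla2+/+ AL, 35.1 to 73.8 in BMAd-Pnpla2+/+ CR, 96.7 to 152 in BMAd-Pnpla2-/- AL and 39.0 to 57.6 in BMAd-Pnpla2-/- CR samples, with no overlap between diets. Its log2 fold change was -1.30 (adjusted p = 0.00409, edgeR) and -1.56 (adjusted p = 0.00944). At an adjusted p under 0.05 alone, 2 of the 12 were lower and 1 higher in BMAd-Pnpla2+/+ mice, and 1 was lower and 0 higher in BMAd-Pnpla2-/- mice, against the same shares of all genes. The gene that was higher was Kit, at 112 to 149 CPM in BMAd-Pnpla2+/+ AL and 166 to 340 in BMAd-Pnpla2+/+ CR samples without overlap (0.93 ± 0.202, adjusted p = 0.00757), and at 0.57 ± 0.232 (adjusted p = 0.122) in BMAd-Pnpla2-/- mice. The summed CPM of the 7 mast cell markers, most of it Kit, was 130 to 165, 184 to 347, 131 to 182 and 175 to 247 in the BMAd-Pnpla2+/+ AL, BMAd-Pnpla2+/+ CR, BMAd-Pnpla2-/- AL and BMAd-Pnpla2-/- CR groups. Fcer1g, the shared signalling chain of Fc receptors, was the other gene that was lower in BMAd-Pnpla2+/+ mice, at -0.40 (adjusted p = 0.0282), and Prss34 was at -0.89 and -1.004 (adjusted p = 0.0816 and 0.130). Kit, Fcer1g and Prss34 were chosen after their values were seen. Of the remaining 10 genes, 5 did not exceed 3 counts in any sample.

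The third list held 17 genes of the cytokines, receptors and chemokines that act on these cells, of which 12 could be tested. None was called in BMAd-Pnpla2+/+ mice by edgeR, where 1.93% of all genes were called lower and 7.26% higher. In BMAd-Pnpla2-/- mice 1 was called higher, beside 2.59% of all genes. At an adjusted p under 0.05 alone, 2 were lower and 1 higher in BMAd-Pnpla2+/+ mice, a share like the 26.0% over all genes, and 1 was lower and 1 higher in BMAd-Pnpla2-/- mice, beside 11.6%. Il5, Il3, Csf2, Il9 and Il33 were not tested, and none of them exceeded 11 counts in any sample. Kitl, which encodes stem cell factor, the ligand of Kit, rose by 1.03 in BMAd-Pnpla2-/- mice (adjusted p = 0.0188) and had 0.92 in BMAd-Pnpla2+/+ mice (adjusted p = 0.00865), short of the fold criterion. Ccl11, which encodes eotaxin, a chemokine for eosinophils, was called in the average over both genotypes alone, at 1.92 (adjusted p = 0.00967), on 1 to 69 counts per sample.

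**Figure D4:**
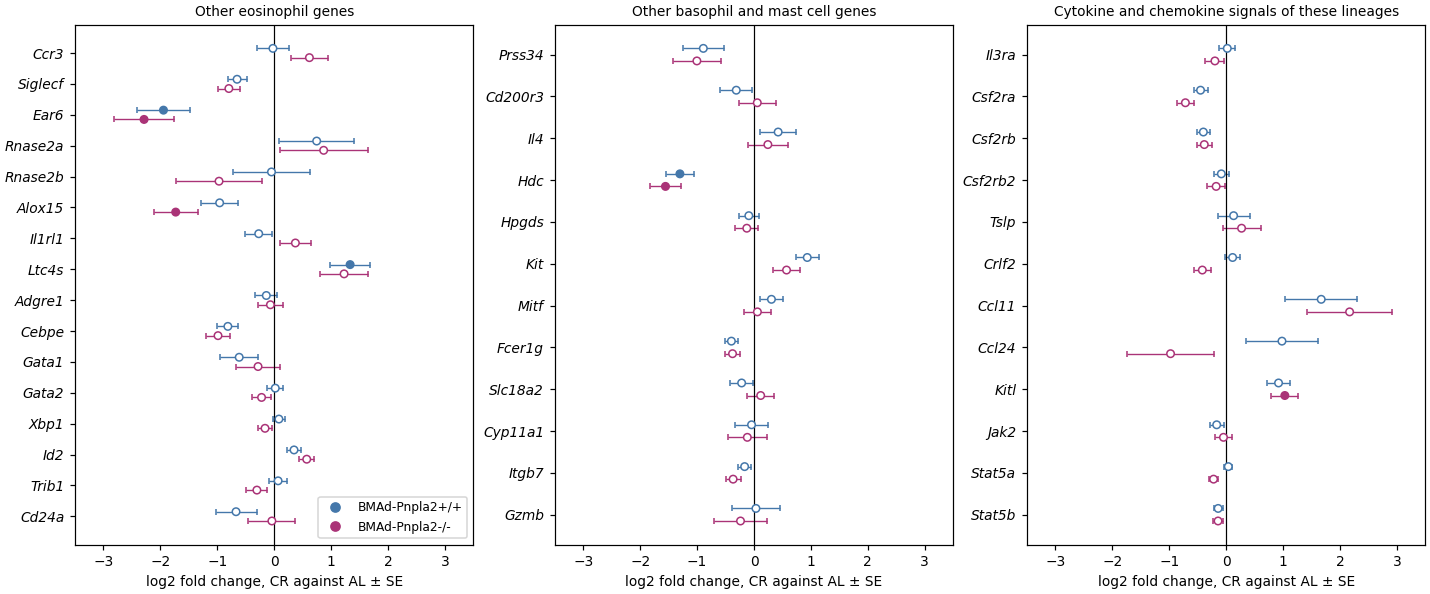
Log2 fold change with CR (horizontal axis, ± SE) of the tested genes of 3 lists in BMAd-Pnpla2+/+ (blue) and BMAd-Pnpla2-/- mice (purple), from edgeR. Filled points are called genes (adjusted p under 0.05, log2 fold change above 1 or below -1), namely Ear6, Alox15 and Ltc4s on the left, Hdc in the middle and Kitl on the right.

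Markers of other cells in the plug moved with diet too. The summed CPM of 5 adipocyte markers was 579 to 1461 in BMAd-Pnpla2+/+ AL, 1620 to 4106 in BMAd-Pnpla2+/+ CR, 248 to 590 in BMAd-Pnpla2-/- AL and 1048 to 1657 in BMAd-Pnpla2-/- CR samples. Of these markers, 5 of 5 were called higher with CR in each genotype, beside 7.26% and 2.59% of all genes. The sum of 7 neutrophil granule markers was 18859 to 23023, 9876 to 18052, 20752 to 21548 and 12129 to 19638 in the same order. None of these 7 was called, but 5 of 7 were lower in BMAd-Pnpla2+/+ mice and 6 of 7 in the average at an adjusted p under 0.05 alone (edgeR), and 0 of 7 in BMAd-Pnpla2-/- mice. Of all genes, 26.0%, 34.5% and 11.6% passed this rule in either direction, in the same order. The sum of 6 pro-B and pre-B markers was 117 to 312, 52.1 to 73.4, 193 to 229 and 55.5 to 61.8. In each genotype 5 of 6 were called lower, beside 1.93% and 0.926% of all genes. The eosinophil sum is made up largely of members. BMAd-Pnpla2+/+ CR replicate 4, which had the highest eosinophil sum of its group (445, against 193 to 272), had the lowest adipocyte sum (1620, against 3133 to 4106). Other groups went the other way. In BMAd-Pnpla2+/+ AL, replicate 1 had the highest eosinophil sum (703) and the highest adipocyte sum (1461). In BMAd-Pnpla2-/- CR, replicate 1 had the lowest of both (253 and 1048). BMAd-Pnpla2-/- AL replicates 2 and 3, the samples with the highest eosinophil sums, had adipocyte sums of 590 and 278, beside 248 in replicate 1. The part of these cell types in the values of the 10 members was not tested.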

How the data were processed

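The authors aligned read pairs of 14 samples to mm10 with STAR (version not given in the sources used here) and deposited raw gene counts, per sample without strand and by strand, and as 1 matrix; the submitters' processing notes also name FastQC 0.11.9 and DESeq2. In the matrix, members had reverse-strand counts in 11 samples and unstranded counts in BMAd-Pnpla2-/- CR. Unstranded counts of the matrix genes, 18658806 to 21339006 per sample, were used here.

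Genes were filtered with filterByExpr, scaled by TMM and tested with the quasi-likelihood test of edgeR 4.0.16 (robust; 4 group means; two-sided) in R 4.3.3, with DESeq2 1.42.0 as an alternative. Log2 CPM used a prior count of 2. The standard error was the log2 fold change over the square root of F. On simulated counts of 16845 genes, CR against AL in BMAd-Pnpla2+/+ mice recovered 199 of 200 genes changed by 2 on the log2 scale, with 4 false calls. The simulation gave every gene the same spread beyond counting noise and took the changed genes from those above a count limit. Hits were counted by adjusted p alone. It does not show how often smaller or more variable changes are found. Named genes were the members, Pnpla2, list genes called in a diet comparison and the 5 genes of closest pattern to Epx, Mcpt8 and Cpa3, of which 1 is not reported here, beside a few list genes chosen after their values were seen. Members and lists were chosen with earlier results of these data known. Coordinates are from GENCODE M21, promoters from RefSeq. Samples with the same replicate number did not deviate together, so numbers were not used as pairs.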

Additional observations from a re-analysis of the deposited data

How the results depend on the processing

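Counts of called members are given here under other settings. In BMAd-Pnpla2+/+ mice, 3 members fell with CR, against 4 with DESeq2, 2 without a filter on low counts and between 1 and 6 when 1 sample was left out. Over all genes, 1608 of 17494 were called, against 1891 of 22368 with DESeq2 and 1737 of 23275 without the filter. Between 1041 and 2238 genes were called when 1 sample was left out. In BMAd-Pnpla2-/- mice 4 fell, against 6 with DESeq2, 5 with the deposited matrix, 5 when only the groups compared were fitted, 2 without the filter, 2 with the number series of the sample labels as a term (chosen after seeing the data) and between 0 and 5 when 1 sample was left out. Over all genes, 615 of 17494 were called, against 789 of 18309 with DESeq2 and 1655 of 17509 with the deposited matrix. With only the groups compared it was 661 of 16406, and without the filter 543 of 23275. The number series gave 490 of 17494, and leaving out 1 sample gave between 124 and 772 genes. Scaling by total counts moved the all-gene median from 0.05 to 0.12 (log2) in BMAd-Pnpla2-/- mice, and 4 members were called. With the replicate number as a block, 4 members (Fcer1a added) were called for BMAd-Pnpla2+/+ mice and 3 (Ear1 lost) for BMAd-Pnpla2-/- mice; 7 of 19 pairs of samples with the same number had a correlation of deviations over 0.1 (median 0.02), beside 16 of 54 pairs with different numbers (median -0.0094), so the samples were taken to share only a number. The average over both genotypes gave 4 or 5 called members under every alternative run, beside 1047 to 1738 of all genes. For the comparisons of genotypes and the difference of responses, 0 members were called. Over all genes, the deposited matrix called 1056 of 17509 between genotypes under CR.

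In the 3 comparisons of diet, reversals of sign concerned Il5ra and Ms4a2, whose log2 fold changes lay near 0. Il5ra ran from -0.492 to 0.0796 in BMAd-Pnpla2+/+ mice, from -0.0315 to 0.306 in BMAd-Pnpla2-/- mice and from -0.17 to 0.12 in the average when 1 sample was left out, and in the average it was -0.0053 with RLE factors, -0.0017 without the filter, -0.0079 with DESeq2 and -0.0245 with the replicate block. Ms4a2 in BMAd-Pnpla2-/- mice was 0.0391 with total counts and 0.14 with the label series, and ran from -0.29 to 0.29 when 1 sample was left out. Between genotypes, where no member was called under any alternative, differences near 0 also changed sign, as for Cpa3, from -0.02 to 0.45 with AL and from -0.19 to 0.28 with CR. Of 690 values of single members in the comparisons of diet, 619 kept their sign and their side of the criteria, 40 lost and 14 gained a call, and 17 changed sign; the cause was not tested. Counts were lowest for Fcer1a, Prg3 and Il5ra, down to 27, 33 and 35.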
